A study of Mus musculus with 16 samples.

Results

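Immediate early genes were followed in mouse kidney RNA through 10 genes: Fos, Fosb, Jun, Junb, Egr1, Atf3, Klf2, Ier2, Zfp36 and Dusp1. The 10 are textbook genes of this class, taken by exact symbol from a table of 40879 gene symbols, and all 10 were found. Of these, 9 were among the 14665 genes with enough counts to be tested. Fosb was not, with 16 counts in all 16 libraries together. On the mouse build GRCm38 (GENCODE M21) Fos lies at chr12:85473890-85477273, Fosb at chr7:19302696-19310051, Jun at chr4:95049034-95052222, Atf3 at chr1:191170296-191218039, Zfp36 at chr7:28376784-28380253 and Dusp1 at chr17:26505590-26562128. Junb (chr8:84974484-84978718), Ier2 (chr8:84661331-84662852) and Klf2 (chr8:72319033-72321656) share chromosome 8.

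The study examined the kidneys of ageing mice given herbal formulas. All libraries came from male wild-type C57BL/6 mice and fell into 4 groups. Old+PM (3 libraries) and Old+YM (3 libraries) were mice dosed orally with Palmijihwang-tang (PM) or Yukmijihwang-tang (YM) at 100 mg/kg/day, 5 days a week, between 19 and 24 months of age. Old (5 libraries) were aged controls whose age when the kidneys were taken was not found in the labels. Young (5 libraries) were controls of 3 months. The labels give 5 months of acclimatization for the aged groups, and in 1 passage they name YM where the amount of PM is given, so the PM dose rests on the remaining text. They do not say that each library is a separate mouse, so p-values measure the spread between libraries, which may in part be technical.

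Immediate early genes are switched on rapidly by a growth factor, calcium, mechanical or stress signal, because the factors that bind their promoters are already in the cell and no new protein has to be made first. Their transcripts are short-lived, so their level follows recent signalling. Fos, Fosb, Jun and Junb encode AP-1 subunits, Atf3 a bZIP factor that can pair with Jun proteins, Egr1 and Klf2 zinc-finger transcription factors, and Ier2 a small nuclear protein. Zfp36 and Dusp1 feed back on the response: tristetraprolin, the product of Zfp36, destabilises mRNAs that carry AU-rich elements, and DUSP1 dephosphorylates MAP kinases. In the kidney, genes of this class are known to respond to ischaemia and injury.

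Libraries held between 8223008 and 10914515 counts, so that 1 count was worth 0.0885 to 0.131 CPM (counts-per-million, on scaled library sizes). QuantSeq reads 1 tag near the 3′ end of each transcript, and levels can therefore be set beside each other without dividing by gene length. Markers of the kidney's proximal tubule were abundant throughout, summing to 23800 to 30700 CPM in Old+PM, 20300 to 22400 CPM in Old+YM, 16300 to 28800 CPM in Old and 36600 to 44600 CPM in Young. Most of that sum was Kap, an androgen-regulated tubular gene, at 15950 ± 3729 CPM in Old and 32290 ± 3264 CPM in Young (SD, n = 5 each). Of the 8 markers, 2 fell in Old against Young (Kap and Slc22a6) and 1 rose (Slc5a12), with a median log2 fold change of -0.16. One library of the Old group, Old 4, stood apart from the other 4 Old libraries on a score of clock genes (mean z-score of 8 genes such as Dbp minus that of 4 genes in opposite phase such as Bmal1). It scored -1.75, against 1.52 to 2.34 in the other Old libraries and -2.95 to -1.01 in Young. Old+YM 3 (-0.36) and Old+PM 3 (-0.18) scored below the other 2 libraries of their groups, which lay between 0.95 and 1.55. Calls on members and counts of lists that change without Old 4 are given beside them. So are list counts that change without Old 5, the library richest in macrophage and T cell markers, or with the clock score in the fit. Of the 8 proximal tubule markers, 0 rose and 3 fell with the clock score, Lrp2 being the added one. Calls over all genes changed too. In Old against Young, 1995 genes passed, 2655 without Old 4, 1208 without Old 5 and 501 with the clock score. In whole tissue, more cells of a type and more RNA per cell cannot be told apart.

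Dusp1, Klf2, Jun and Junb were the most abundant, with means of 44.0, 39.0, 30.7 and 23.3 CPM over the 16 libraries, at the 76.6th, 74.1st, 69th and 62.5th percentile of tested genes. Egr1 (12.97 CPM), Zfp36 (9.34 CPM) and Ier2 (3.79 CPM) lay near or below the middle. Atf3 (1.16 CPM) and Fos (0.902 CPM) were at the 9.25th and 6.03rd percentile, and Fosb averaged 0.104 CPM. The order of neighbours was not firm: Dusp1 and Klf2 averaged 48.5 ± 16.1 and 43.5 ± 8.96 CPM in Old kidneys (SD, n = 5), a gap inside their spread.

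Old kidneys differed from Young in 2 of the 9 tested genes by edgeR's quasi-likelihood test (Benjamini-Hochberg adjusted over 14665 genes, threshold 0.05). Junb and Klf2 rose, and none fell. Over all tested genes, 6.47% rose and 7.13% fell by the same rule, 13.6% in all. The other 7 did not pass, although 8 of the 9 log2 fold changes were above 0, with a median of 0.52 against 0.02 over all genes.

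**Figure D1:**
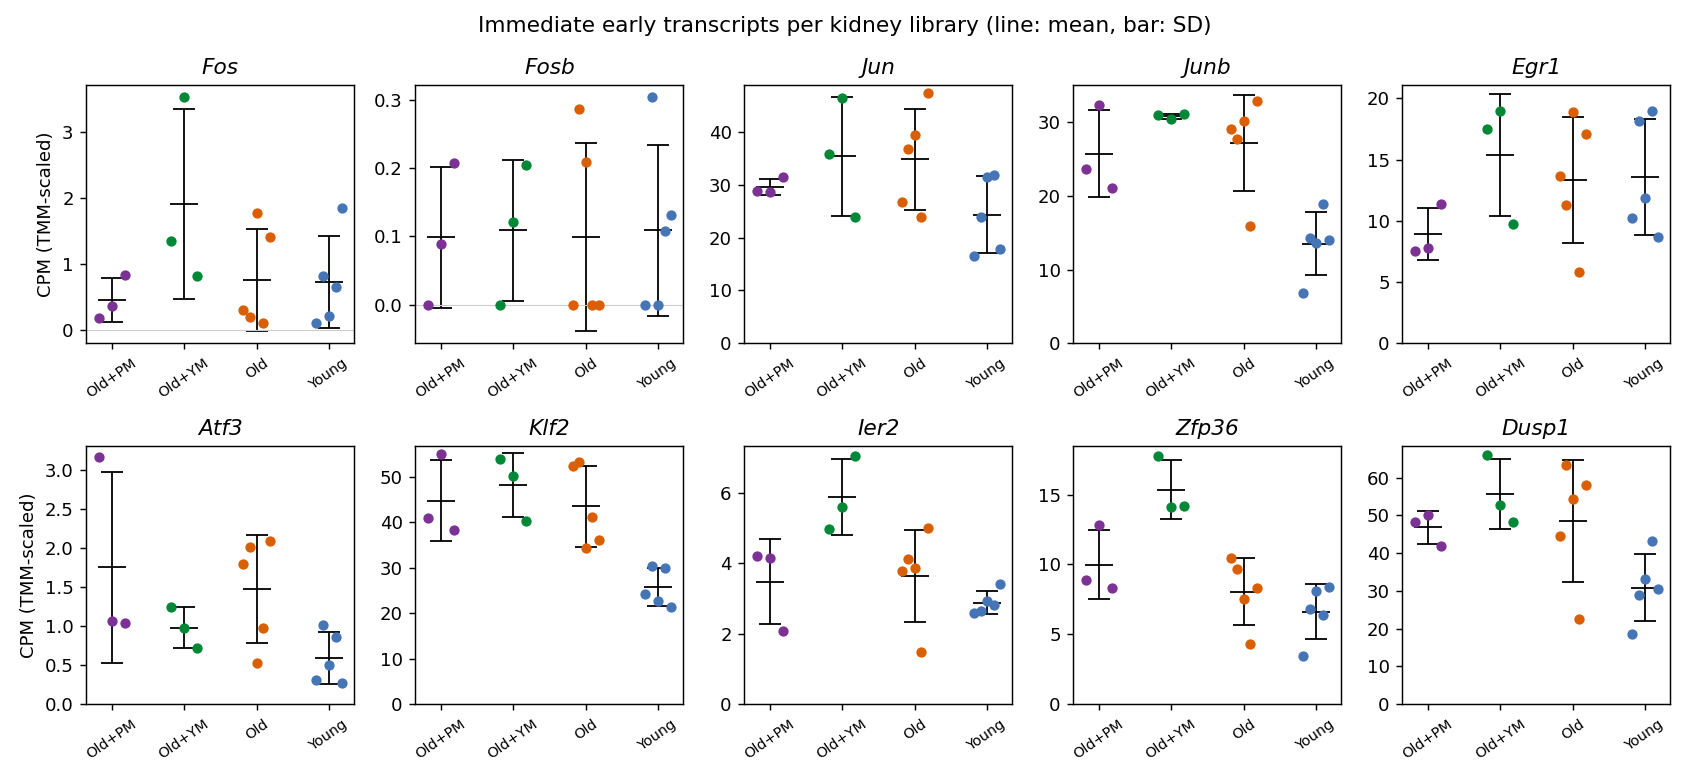
Level of each of the 10 genes (CPM, linear vertical axis, a separate scale per panel) in Old+PM, Old+YM, Old and Young kidneys; points are libraries, and bars give the mean ± SD. Klf2 has all 11 aged libraries above all 5 Young libraries, Egr1 has no aged library above all 5, and Fosb is at 0 in 7 libraries.

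Junb encodes an AP-1 subunit that often acts as a weaker activator than Jun. Its level was 29.2, 27.7, 30.2, 15.98 and 33.0 CPM in the 5 Old libraries, against 6.82, 14.3, 13.6, 18.9 and 14.1 CPM in the 5 Young libraries. Old 4, at 15.98 CPM, was the only Old library inside the Young range. The means were 27.2 ± 6.56 CPM in Old and 13.5 ± 4.32 CPM in Young (SD, n = 5 each), a log2 fold change of 1.01 (SE 0.22, edgeR adjusted p = 0.00505). Treated kidneys lay inside the Old range: 23.7, 32.4 and 21.1 CPM in Old+PM and 31.0, 30.4 and 31.1 CPM in Old+YM. All 3 Old+YM libraries and all 3 Old+PM libraries were above the highest Young library.

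The annotation places the last 173 bases of Junb (chr8:84974484-84978718, minus strand, GRCm38, GENCODE M21) over exon sequence of Prdx2 on the other strand. Whether the counting used strand was not found in the labels, so reads of these genes cannot be told apart there if strand was ignored. Prdx2, an antioxidant peroxiredoxin, averaged 176 ± 13.4 CPM in Old kidneys, against 201 ± 12.1 CPM in Young kidneys (SD, n = 5 each), a log2 fold change of -0.19 (SE 0.09, edgeR adjusted p = 0.147). The overlap is at the 3′ end of Junb, near which QuantSeq tags lie, and the part of Prdx2 reads in the Junb counts was not tested.

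Klf2, a transcription factor that blood flow induces in endothelial cells, had the cleanest separation. It read 52.5, 53.3, 34.2, 41.2 and 36.2 CPM in Old, against 24.3, 30.3, 22.6, 29.9 and 21.3 CPM in Young. No Old library overlapped Young, and Klf2 was the only one of the 9 of which this was true (4.21% of all genes were higher without overlap, 4.97% lower, 9.19% either way). Means were 43.5 ± 8.96 CPM in Old and 25.7 ± 4.17 CPM in Young (SD, n = 5 each), a log2 fold change of 0.76 (SE 0.15, edgeR adjusted p = 0.00281). Old+PM read 41.0, 55.0 and 38.3 CPM and Old+YM 53.9, 50.1 and 40.3 CPM, so that 11 of 11 aged libraries were above every Young library. The matching number was 10 for Junb, 9 each for Ier2 and Dusp1, 7 each for Atf3 and Zfp36, 5 for Jun, 1 for Fos and 0 for Egr1. These counts take treated and untreated aged libraries together, and no matching share of all genes was computed for them.

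Of 10 endothelial markers, 1 rose (Flt1, a VEGF receptor, log2 fold change 0.30). Their median was -0.01, and their summed level was 479 to 559 CPM in Old against 444 to 542 CPM in Young. Without Old 5, or with the clock score in the fit, none of the 10 passed. Of 9 genes known as KLF2 targets in endothelium, some activated and some repressed, 3 rose and 0 fell: Nos3, endothelial nitric oxide synthase (1.17, edgeR adjusted p = 0.00468), Klf4 (0.73, adjusted p = 0.00596) and Vcam1, a leukocyte adhesion molecule that KLF2 is known to repress (1.95, adjusted p = 0.001004). Without Old 4, 4 of the 9 rose, S1pr1 being the added one, and with the clock score 1 did (Klf4). Macrophage markers moved in the same comparison: 7 of 10 rose, with a median log2 fold change of 1.78 and a summed level of 196 to 1280 CPM in Old against 175 to 216 CPM in Young. Old 5 held the highest macrophage sum, and the other Old libraries lay between 196 and 379 CPM. Without Old 5, 5 of the 10 macrophage markers rose, 1 fell (Csf1r) and the median was 1.02. Without Old 4, 8 rose, and with the clock score 0 did. T cell markers rose in 2 of 6 tested, but their sum was 54.4 CPM in Old 5, against 4.11 to 12 CPM in the other Old libraries, and 0 of 5 passed without Old 5. Without Old 4, 3 of 5 T cell markers passed, and with the clock score 0 of 6 did. Of 2 neutrophil markers tested of 6 listed, 1 rose, and with the clock score 0 did. Junb and Klf2 passed without Old 5, where those 5 macrophage markers still rose. The part of these cells in the Junb and Klf2 results was not tested.

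The promoters of these genes are shown because the members are defined by how their promoters answer signals. Windows run from 250 bases before to 50 after the RefSeq start (GRCm38.p6), and 8 of the 10 were matched, all but Egr1 and Ier2. Capitals mark the motifs found, searched on both strands: the CRE half-site TGACG, to which CREB and ATF factors bind, the full CRE TGACGTCA, which contains it, the AP-1 site TGANTCA, the MEF2 box and the CArG box. The Junb stretch is 250 to 51 bases upstream, minus strand, chr8:84978799-84978998, and the Klf2 stretch covers the same distances on the plus strand, chr8:72318812-72319011.
Junb: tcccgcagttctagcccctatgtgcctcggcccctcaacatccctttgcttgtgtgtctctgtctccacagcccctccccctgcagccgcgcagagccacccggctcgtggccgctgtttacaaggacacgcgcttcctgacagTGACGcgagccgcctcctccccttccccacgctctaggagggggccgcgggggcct
Klf2: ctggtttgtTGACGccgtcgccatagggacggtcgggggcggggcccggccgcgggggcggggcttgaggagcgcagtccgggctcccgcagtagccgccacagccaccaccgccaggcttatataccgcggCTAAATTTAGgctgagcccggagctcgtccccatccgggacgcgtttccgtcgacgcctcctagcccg
Both stretches hold 1 CRE half-site, 106 bases upstream in Junb and 241 in Klf2, and Klf2 also holds a MEF2 box at 118. Windows of 30 bases show motifs of the other members, and a further CRE half-site 129 bases upstream in Fos and another 191 bases upstream in Dusp1 lie outside them.
Fos: cagttccgcccagTGACGtaggaagtccat
Fosb: atggagttgcgggTGACGcaagcgcggggg
Jun: acatcatgggCTATTTTTAGggattgactg
Atf3: tccctggaagCTATTAATAGcattaCGTCA
Zfp36: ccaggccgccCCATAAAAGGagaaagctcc
Dusp1: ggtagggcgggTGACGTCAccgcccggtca
A CRE half-site was found in 6 of the 8 promoters (Fos, Fosb, Junb, Atf3, Klf2 and Dusp1), and in 20.8% of 32851 mouse promoters of the same length. The MEF2 box was found in 3 (Jun, Atf3 and Klf2), against 3.19% of promoters. The full CRE was found in Dusp1 only (1.79% of promoters), the CArG box of serum response factor in Zfp36 only (1.63%) and the AP-1 site in none (7.81%). Among the 8, the genes that passed the test did not share a motif that the others lacked. Sites outside the windows, or of another spelling, were not searched, so a motif not found here may still be present.

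Jun and Dusp1 followed Junb in direction but did not pass. Jun, the principal partner of FOS in AP-1, read 26.8, 36.9, 39.4, 24.0 and 47.4 CPM in Old, against 16.6, 23.9, 31.6, 31.9 and 17.9 CPM in Young. The groups overlapped, and the log2 fold change was 0.52 (SE 0.22, edgeR adjusted p = 0.133). Dusp1 read 44.5, 63.3, 54.4, 22.5 and 58.0 CPM in Old, against 18.5, 28.9, 33.1, 43.4 and 30.5 CPM in Young. Old 4 was below 4 of the 5 Young libraries, while the other 4 Old libraries were above all 5. The log2 fold change of Dusp1 was 0.65 (SE 0.24, edgeR adjusted p = 0.0850). Without Old 4, both passed, at 0.85 for Dusp1 (adjusted p = 0.00284) and 0.63 for Jun (adjusted p = 0.0439). Dusp1 also passed without Young 4 (0.81, adjusted p = 0.0491).

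Fos and Fosb were close to undetected in every group. Fos had 1 to 29 counts per library, and at such depth only large changes could be seen. It read 0.299, 0.191, 1.77, 0.0975 and 1.40 CPM in Old, against 0.103, 0.813, 0.203, 0.647 and 1.84 CPM in Young. Each of these groups held low and high libraries, with Old 3 and Old 5 high in Old and Young 5 high in Young. The log2 fold change was 0.09 (SE 0.78, edgeR adjusted p = 0.959). Fosb had between 0 and 3 counts in any library, with no count in 7 of 16.

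Egr1, a factor that growth factor signalling induces, did not pass either. It read 13.6, 11.3, 18.9, 5.85 and 17.1 CPM in Old, against 10.2, 18.2, 11.8, 18.99 and 8.68 CPM in Young. The lowest of these 10 libraries was Old 4. The log2 fold change was -0.03 (SE 0.29, 95% interval -0.64 to 0.58, edgeR adjusted p = 0.964), so a change of either sign up to that size was not resolved. Whether Junb moved apart from Egr1 was examined by the ratio within each library, a test chosen after the data were seen. The log2 ratio of Junb to Egr1 was 1.09 ± 0.30 in Old and -0.01 ± 0.50 in Young (SD, n = 5 each). Its exact two-sided permutation p was 0.0159, and 0.167 after adjustment over 28 pairs. These were the pairs of the 8 tested members other than Fos, which was left out. None of the 28 pairs passed the adjusted threshold, and the smallest p that 5 against 5 libraries allow is 0.00794.

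Atf3, a factor induced by stress and tubular injury, had 2 to 34 counts per library. It read 1.79, 2.01, 0.522, 0.975 and 2.10 CPM in Old, against 0.310, 1.02, 0.506, 0.863 and 0.263 CPM in Young. Old 1, Old 2 and Old 5 were above every Young one, and Old 3 lay inside the Young range with Old 4. The log2 fold change of 1.29 was the largest of the 9 and did not pass (SE 0.52, edgeR adjusted p = 0.109). Ier2 read between 1.46 (Old 4) and 4.99 CPM (Old 5) in Old, against 2.58 (Young 1) and 3.42 CPM (Young 5) in Young. It averaged 3.64 ± 1.31 CPM in Old and 2.88 ± 0.333 CPM in Young (SD, n = 5 each), with a log2 fold change of 0.34 (SE 0.30). Zfp36 averaged 8.04 ± 2.39 CPM in Old and 6.62 ± 1.99 CPM in Young (SD, n = 5 each), with 0.28 (SE 0.25). Neither passed, at an edgeR adjusted p of 0.492 for each.

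Within groups, some libraries were low in most members. Old 4 was the lowest Old library for 7 of the 9 tested members, Young 1 the lowest Young library for 6, and Old+PM 3 and Old+YM 3 were lowest in their groups for 6 each. Old+PM 3 was also the highest Old+PM library for the other 3 (Fos, Jun and Egr1), and Old+YM 3 the highest Old+YM library for 2 (Junb and Ier2). The summed level of the 10 genes was 116 CPM in Old 4, against 183 to 209 CPM in the other Old libraries, and 82.9 CPM in Young 1, against 107 to 154 CPM in the other Young libraries. After group means were removed, 33 of 36 pairs of members were positively correlated over the 16 libraries, with a median r of 0.35. The closest were Junb with Dusp1 (0.87), Junb with Zfp36 (0.82), Zfp36 with Dusp1 (0.77) and Jun with Egr1 (0.75), and the farthest apart were Fos and Klf2 (-0.29). The genes of each pair were read from the same libraries, so they share depth and RNA quality. Old 4 and Young 1, low in most members, enter every pair. No matching value was computed for pairs of other genes. Of 14656 other tested genes, those whose deviations were most like the members' mean were Mylpf (r = 0.87), Klhl20 (0.86), Ormdl2 (0.85), Samd10 (0.84) and Mapk1ip1l (0.84), over 16 libraries and picked as the highest.

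**Figure D2:**
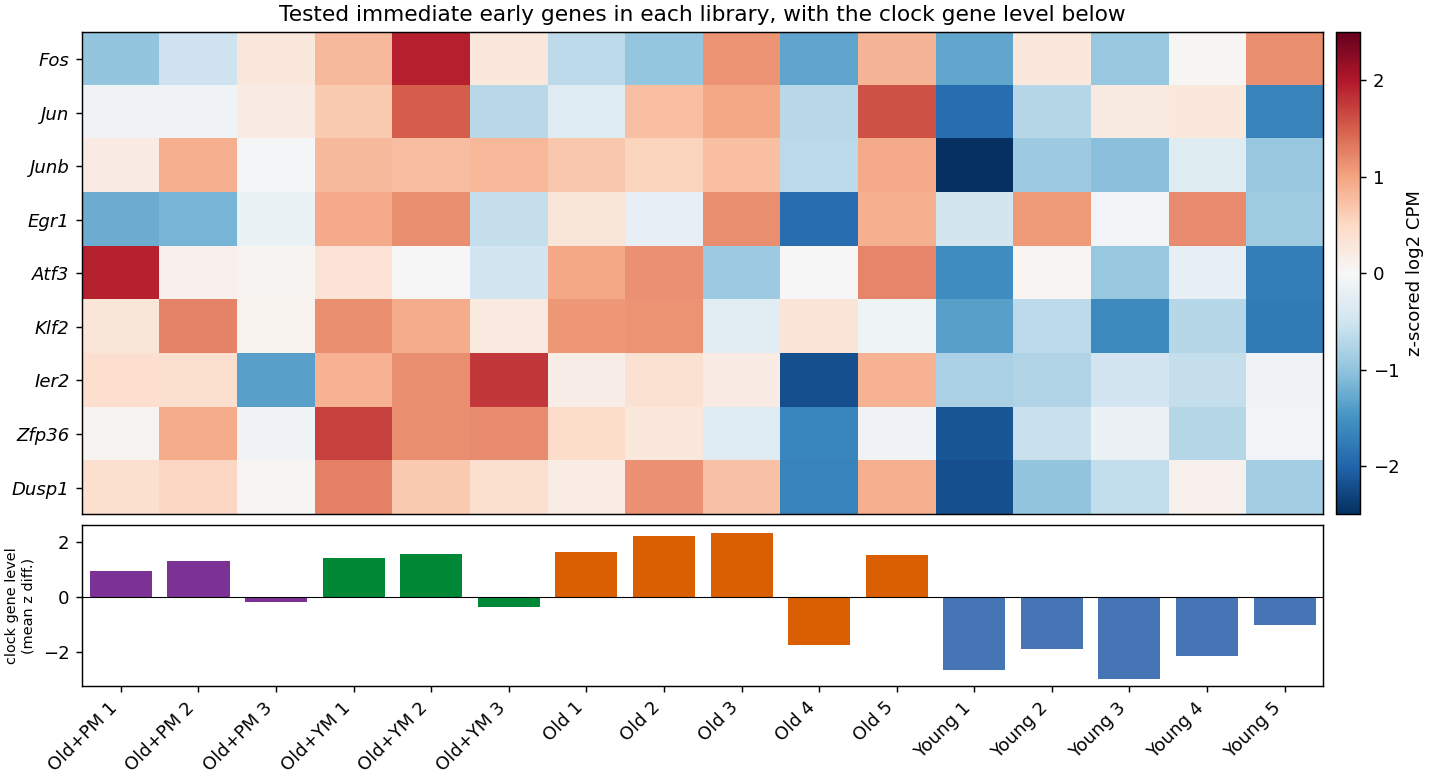
Tested members (rows) in each library (columns) as z-scores of log2 CPM, above a bar plot of the clock gene score (mean z difference) for the same libraries. Old 4 is low in most rows and is the only Old library with a clock score below 0 (-1.75).

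In each aged group, the library that was most often lowest also had the lowest clock score, whereas in Young the lowest score was that of Young 3 (-2.95), not Young 1 (-2.65). In Old against Young, 6 of the 8 clock genes rose and 3 of the 4 in opposite phase fell, and without Old 4 all 8 rose and all 4 fell. Without Old 5, 6 rose and 2 fell. With the score, which is made of these genes, in the fit, 0 of the 8 rose and 1 fell (Tef). Of the 4 in opposite phase, 0 fell. The clock score separated Old, other than Old 4, from Young, so the clock state and age cannot be told apart in this comparison. The clock genes, like the other lists, were chosen with earlier results of these data known. With the score added to the fit, Junb had a log2 fold change of 0.31 (SE 0.29, edgeR adjusted p = 0.612). That of Klf2 was 0.55 (SE 0.23, edgeR adjusted p = 0.183), and no member passed in Old against Young. The median over the 9 was then -0.31. Without the score, the SE was 0.22 for Junb and 0.15 for Klf2. Over all genes, 501 passed with the score and 1995 without it, so the loss of calls was not confined to the members. Within groups the SD of log2 CPM had a median of 0.44 over the members, against 0.31 over all genes. It was 1.06 for Fos and 0.66 for Atf3, both of low count, and 0.54 for Egr1. Jun, Junb, Zfp36, Dusp1 and Ier2 lay between the 62.9th and 69th percentile of tested genes. Klf2, at 0.26, was at the 39.8th percentile. The genes compared were not matched for level.

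Old+YM kidneys were compared with Old for an effect of Yukmijihwang-tang. None of the 9 members passed, by edgeR's quasi-likelihood test, and 0.0205% of all genes did. Unadjusted, 2 members had p under 0.05, against 9.48% of all genes. Those 2 were Zfp36 and Ier2. Zfp36 read 17.8, 14.1 and 14.2 CPM in Old+YM, against 10.4, 9.66, 7.51, 4.29 and 8.29 CPM in Old. All 3 Old+YM libraries were above all 5 Old libraries, as were 5.15% of all genes, with 3.95% lower and 9.1% either way, and the log2 fold change was 0.93 (SE 0.27, edgeR adjusted p = 0.289). Ier2 read 4.97, 5.60 and 7.06 CPM in Old+YM, against 3.78, 4.11, 3.86, 1.46 and 4.99 CPM in Old. Old 5 overlapped the lowest Old+YM library, and the log2 fold change was 0.69 (SE 0.33, edgeR adjusted p = 0.518). Fos read 1.35, 3.53 and 0.818 CPM in Old+YM, a log2 fold change over Old of 1.32 with a SE of 0.82 (edgeR adjusted p = 0.620). With the clock score in the fit, Zfp36 passed (1.06, edgeR adjusted p = 0.0427). Over all genes, 79 passed in that fit, against 3 without the score.

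Jun read 35.9, 46.5 and 23.9 CPM in Old+YM, and Dusp1 66.1, 52.9 and 48.2 CPM. Atf3 read 1.24, 0.973 and 0.716 CPM in Old+YM, and its log2 fold change over Old was -0.59 (SE 0.59, edgeR adjusted p = 0.771). Of these values, Dusp1 in Old+YM 1 lay above the Old range and Jun in Old+YM 3 just below it. Junb, Klf2, Jun, Egr1 and Dusp1 did not pass in Old+YM against Old, with log2 fold changes of 0.18, 0.15, 0.02, 0.20 and 0.20. Egr1 averaged 15.4 ± 4.97 CPM in Old+YM (SD, n = 3) and 13.4 ± 5.13 CPM in Old (SD, n = 5). Dusp1 averaged 55.7 ± 9.32 CPM in Old+YM (SD, n = 3) and 48.5 ± 16.1 CPM in Old (SD, n = 5). Both differences were smaller than the SD of either group. Over the 9, the median was 0.20, against -0.03 over all genes. The 2 genes that rose with age, Junb and Klf2, did not pass in either treated group. The 95% interval of the log2 fold change over Old was -0.33 to 0.69 for Junb and -0.21 to 0.51 for Klf2 in Old+YM, and -0.59 to 0.43 for Junb and -0.32 to 0.40 for Klf2 in Old+PM.

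Old+PM kidneys, compared with Old for Palmijihwang-tang, also had no member past the threshold (0% of all genes passed), and no member had an unadjusted p under 0.05, against 6.16% of all genes. The lowest unadjusted p was that of Egr1 (0.107), which read 7.55, 7.79 and 11.4 CPM in Old+PM, a log2 fold change over Old of -0.58 (SE 0.34, edgeR adjusted p at least 0.843 for all members). Old 4 at 5.85 CPM was below all 3. No member was free of overlap between the groups, against 1.92% of all genes that were higher, 2.1% lower and 4.02% either way. Fos read 0.186, 0.354 and 0.828 CPM in Old+PM (log2 fold change -0.71, SE 0.94). Zfp36 averaged 9.99 ± 2.48 CPM in Old+PM (SD, n = 3) and 8.04 ± 2.39 CPM in Old (SD, n = 5). Jun read 28.8, 28.7 and 31.5 CPM in Old+PM, and Dusp1 48.4, 50.2 and 41.9 CPM, all inside the Old range. Atf3 read 3.17, 1.06 and 1.03 CPM, with Old+PM 1 the highest of the 16 libraries. Jun, Junb, Ier2, Dusp1 and Klf2 had log2 fold changes between -0.23 and 0.04. The median of the 9 was -0.06, against -0.02 over all genes.

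**Figure D3:**
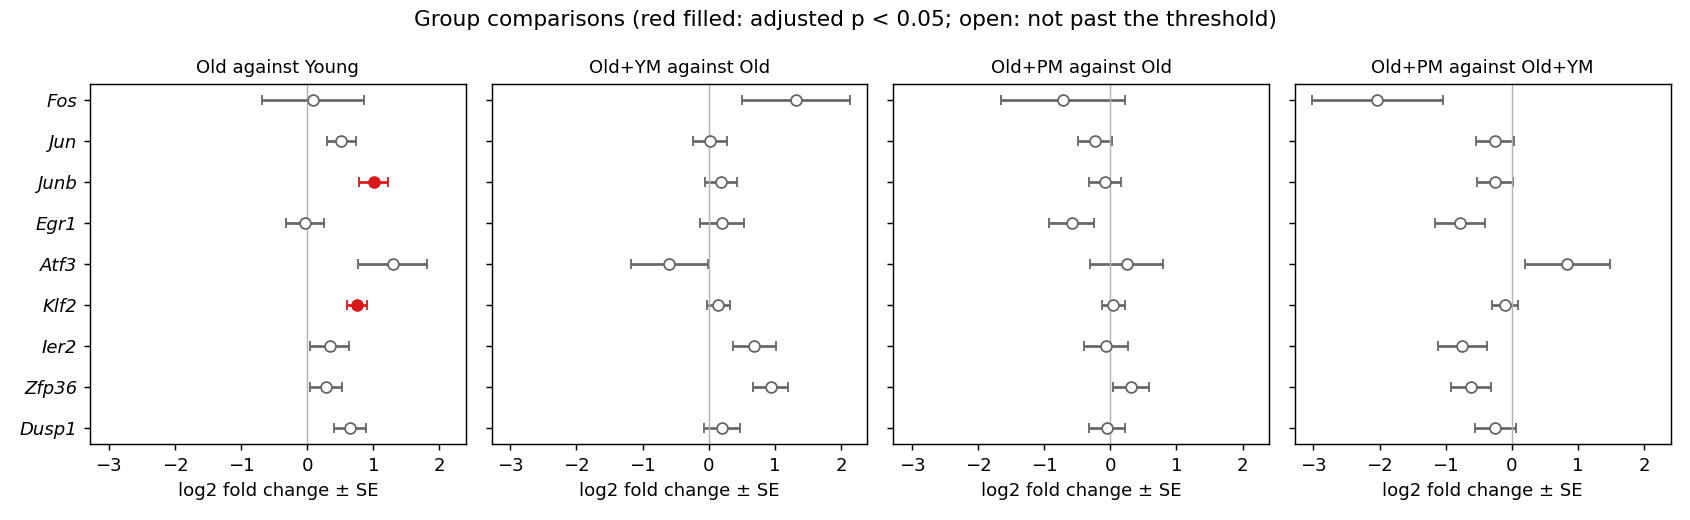
Log2 fold change with SE for the 9 tested members in the 4 comparisons (horizontal axis, tested at an adjusted p of 0.05). Filled red points, Junb and Klf2 in Old against Young, are the only ones that pass.

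Old+PM was set against Old+YM directly, 3 libraries each. By edgeR's quasi-likelihood test no member passed, nor did any gene (0%). DESeq2 and limma-voom also called 0 members, although over all genes they called 58 and 4. No member had an unadjusted edgeR p under 0.05, against 12.8% of all genes. Just above that cut lay Egr1 (0.0524), Fos (0.0534), Zfp36 (0.0546) and Ier2 (0.0555). Of the 9 log2 fold changes, 8 were below 0, with a median of -0.26 against 0.01 over all genes. Zfp36 read 8.86, 12.8 and 8.28 CPM in Old+PM, against 17.8, 14.1 and 14.2 CPM in Old+YM (log2 fold change -0.62, SE 0.30, edgeR adjusted p = 0.401). Ier2 read 4.19, 4.16 and 2.07 CPM in Old+PM, against 4.97, 5.60 and 7.06 CPM in Old+YM (-0.75, SE 0.37, edgeR adjusted p = 0.402). In both genes every Old+PM library was below every Old+YM library, which 11.9% of all genes also showed, 23.8% being apart in either direction. Egr1 had a log2 fold change of -0.79 (SE 0.38, edgeR adjusted p = 0.395), Fos of -2.03 (SE 0.99, adjusted p = 0.398) and Atf3 of 0.84 (SE 0.64), none of which passed. The comparisons with Old share the Old libraries, and that of Old+PM with Old+YM shares both treated groups, so their values are not independent.

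Other genes of the same response were described from lists. Of 32 further immediate early genes, 28 were tested, and in Old against Young 5 rose and 0 fell, with a median log2 fold change of 0.38 against 0.02 over all genes. The 4 with the largest change were the stress gene Gadd45b (1.36, edgeR adjusted p = 0.0291), Nfkbiz, a nuclear IκB protein (0.96, adjusted p = 0.00773), Fosl2, an AP-1 subunit (0.86, adjusted p = 0.00202), and the zinc-finger factor Klf4 (0.73, also counted among the KLF2 targets). Without Old 4 the number was 7, without Old 5 it was 3, and with the clock score in the fit it was 1. None of the 28 passed in any comparison of treated groups.

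**Figure D4:**
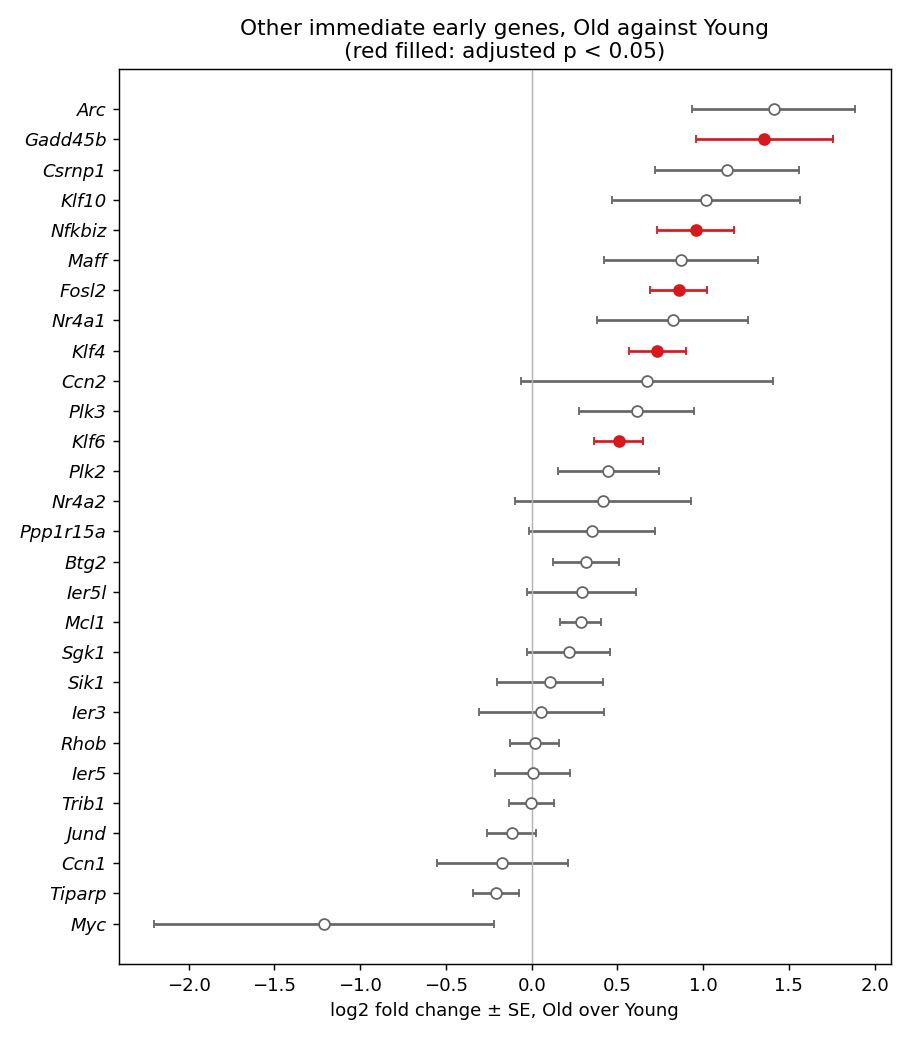
Log2 fold change with SE of the other tested immediate early genes in Old against Young (horizontal axis). The 5 that pass lie above 0, and 23 of the 28 lie above 0.

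In Old against Young, genes upstream of the members were also counted. Of 27 kinases and promoter-binding factors that carry the signal, 2 rose (Mef2c, 0.61, and Mef2d, 0.35) and 1 fell (Map2k2, -0.32), with a median of 0.15. That share of rises is near the 6.47% of all genes. Without Old 5, and likewise with the clock score, 0 rose and 0 fell, and without Old 4, 3 rose and 2 fell.

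Of 8 MAP kinase phosphatases other than Dusp1, 2 rose: Dusp2 (2.70), found mainly in immune cells, and Dusp9 (0.91). Dusp2 averaged 2.24 ± 3.02 CPM in Old and 0.350 ± 0.350 CPM in Young (SD, n = 5 each), and without Old 5 it did not pass, leaving Dusp9. The number was 4 without Old 4 and 0 with the clock score. Of 10 listed mRNAs with AU-rich elements that tristetraprolin is known to destabilise, among them cytokines and Ier3, 6 were tested. Il6 and Csf2 had no count in any library. Of the 6, 3 rose: Cxcl2 (3.64), Ccl2 (2.27) and Cxcl1 (2.25). Their levels were low, with means of 0.698, 2.20 and 1.89 CPM in Old and 0.0526, 0.462 and 0.389 CPM in Young. Ier3, also counted among the further immediate early genes, did not pass (0.06). Without Old 5, 2 of 4 tested rose (Ccl2 and Cxcl1), and with the clock score 0 of 6 did.

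Of 12 genes that glucocorticoids induce, 5 rose, the largest changes being those of Lcn2 (2.16), a tubular injury marker, Per1 (1.69), a clock gene, Mt2 (1.17), a metallothionein, and Tsc22d3 (0.58). Without Old 5, 2 rose (Mt1 and Tsc22d3), without Old 4, 6 rose, and with the clock score 0 did. Of 11 heat shock genes, 6 fell and 0 rose, the largest changes being those of the chaperones and cochaperones Hsp90aa1 (-0.96), Dnaja1 (-0.70), Hspd1 (-0.62) and Hsph1 (-0.60). Without Old 5, 4 fell, and with the clock score 1 did (Dnaja1). No gene of these lists passed in the 3 comparisons that involve a treated group.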

How the data were processed

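Kidney total RNA of 16 libraries was sequenced from 3′ ends with a QuantSeq kit. The authors deposited raw counts per gene symbol, not normalized. Reads were handled with Bowtie2 and bedtools on mm10, per the submitters' processing notes. Versions, annotation and strand setting were not found there or in the labels. Groups came from the labels.

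Counts were tested in R 4.3.3 with edgeR 4.0.16 (quasi-likelihood, robust, TMM, filterByExpr minimum count 10). All 16 libraries entered 1 fit with a term for group, which removed 26214 symbols and tested 14665 genes two-sided, with Benjamini-Hochberg adjustment over them at 0.05. CPM used TMM-scaled library sizes, and log2 CPM a prior count of 2. The test was tried on simulated counts. Limma 3.58.1 and DESeq2 1.42.0 were alternatives. Older symbols were matched to current ones.

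The members and the 23 gene lists were chosen with earlier results of these data known. Named were all 10 members, up to 4 list genes past the threshold by size of change, defining markers, and the 5 genes most like the members. Further genes are named where a setting changed the calls of a list, or to describe a list or an overlap. Ratios between members were tested by exact permutation, chosen after the data were seen. Positions are from GENCODE M21 and promoters from RefSeq. Same-numbered libraries did not deviate together, so no pairing was used.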

Additional observations from a re-analysis of the deposited data

How the results depend on the processing

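In Old against Young, 2 members passed. The number was 3 with DESeq2, 4 without Old 4, Old+YM 3 and Old+PM 3 together, 0 with the clock score as a covariate, and 2 to 4 when 1 library at a time was left out. Calls over all genes moved in the same direction with DESeq2, without those 3 libraries and with the clock score. They were 1995 of 14665 genes in the main fit, 2473 with DESeq2 and 501 with the clock score. Without those 3 libraries, they were 2899 of 15034. The 2 numbers did not always move together: without Young 4, Dusp1 passed as well, but calls over all genes were fewer, at 1236 of 14628. Junb and Klf2 each passed in 26 of 27 alternatives, the exception being the clock score. In Old+YM against Old, 0 members passed, and 1 did with the clock score. Over all genes, 79 passed with the score there, against 3 without it. The number of members stayed at 0 in both other comparisons. The cause of the changes with the clock score was not tested. With a replicate block, which pairs libraries by number, 2 members passed, Junb at 1.02 (edgeR adjusted p = 0.0119) and Klf2 at 0.75 (adjusted p = 0.000487). Libraries with the same number did not deviate together (median r 0.00 over 20 pairs, -0.30 to 0.16).

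Signs turned as follows, all as log2 fold changes of genes that did not pass. In Old against Young, Egr1 was 0.0225 with upper-quartile scaling and 0.16 without the 3 low-clock libraries, Fos was -0.0568 with limma-voom, and the clock score gave -2.64 for Fos, -0.58 for Ier2, -0.54 for Zfp36 and -0.31 for Dusp1. In Old+PM against Old, Dusp1 was 0.0329 with limma-voom, Klf2 was -0.0059 with the replicate block, and the clock score gave 0.13 for Fos, 0.0414 for Junb, 0.10 for Ier2 and 0.15 for Dusp1. Leaving out 1 library at a time gave -0.50 to 0.76 for Fos and -0.19 to 0.17 for Egr1 in Old against Young, and -0.22 to 0.25 for Jun in Old+YM against Old. In Old+PM against Old it gave -0.27 to 0.0482 for Junb, -0.49 to 0.52 for Atf3, -0.12 to 0.15 for Klf2, -0.24 to 0.20 for Ier2 and -0.21 to 0.0840 for Dusp1. Fos, Fosb and Atf3 are limited by depth.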
